A study of Homo sapiens with 2 samples.

Results

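The 10 genes described here are those by which the epithelial-mesenchymal state of a carcinoma cell is usually read, namely CDH1, EPCAM, SNAI1, SNAI2, ZEB1, ZEB2, TWIST1, CDH2, FN1 and VIM. They were taken by name, with no measured value in the rule, although earlier results of these data were known. They make up 10 of the 44591 genes in the table. All 10 had at least 10 reads summed over both libraries, the minimum at which a change was computed, as did 19840 genes in all. The RNA came from cells labelled HSC-1, a human cutaneous squamous cell carcinoma line, although the markers of squamous epithelium checked further on were mostly low. One culture was transfected with a control siRNA (siNC) and the other with siRNA against the long non-coding RNA LINP1 (siLINP1). Cells were transfected at about 70% confluency, kept 6 h in serum-free medium and harvested 24 h after return to medium with serum. Each condition was represented by 1 library of 1 cell line, so no difference below has a replicate check and culture, library and treatment cannot be told apart.

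The siNC library held 18829544 counted reads and the siLINP1 library 15383081. LINP1, the targeted transcript, gave 167 reads with siNC against 23 with siLINP1, a log2 fold change of -2.65 with a 95% interval of -3.35 to -2.02. Intervals on fold changes are Clopper-Pearson intervals of the siLINP1 share of a gene's reads and those on levels are exact Poisson intervals, and both cover counting error only. Levels are given as RPKM (counted reads set against gene length and library total), which can be set side by side between genes. Changes are log2 ratios of counts scaled by size factors (the median of ratios over genes), siLINP1 over siNC. The text says that a gene was higher or lower in siLINP1 where its whole interval lay on 1 side of no change.

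In epithelial-mesenchymal transition, epithelial cells lose the junctions that tie them to their neighbours and take on the shape, matrix and motility of mesenchymal cells. The SNAI, ZEB and TWIST transcription factors drive it, in part by binding E-box motifs in the promoters of epithelial genes such as CDH1 and recruiting co-repressors there. The transition is opposed by the miR-200 family and miR-205, small RNAs of epithelial cells that pair with the 3′UTR of ZEB1 and ZEB2 mRNA, while the ZEB factors in turn repress the miR-200 genes. In squamous carcinoma the state often lies between the epithelial and the mesenchymal end.

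Both libraries carried a mesenchymal pattern of these genes and very little epithelial cadherin. VIM, CDH2, FN1, SNAI1, TWIST1, ZEB1 and ZEB2 were each above 1 RPKM in both libraries, while CDH1, EPCAM and SNAI2 were below it in both. With siLINP1, the transcription factors ZEB2, ZEB1 and SNAI1 were higher and the effector genes VIM, CDH2 and FN1 were lower, as was the transcription factor TWIST1. CDH1, with 14 and 3 reads, was also lower. The genes therefore did not move as 1 block towards either end of the epithelial-mesenchymal axis.

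Of the sequences that bear on these genes, the miRNAs that pair with ZEB1 and ZEB2 are shown first, because both ZEB genes were higher and ZEB2 had the largest rise of the members. The mature sequences are from RefSeq (GRCh38.p14), with the seed, bases 2 to 8, in capitals. miR-200a-3p and miR-141-3p share the seed AACACUG, whereas miR-200b-3p, miR-200c-3p and miR-429 share AAUACUG, and miR-205-5p has a seed of its own.
hsa-miR-200a-3p: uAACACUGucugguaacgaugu
hsa-miR-141-3p: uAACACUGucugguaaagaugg
hsa-miR-200b-3p: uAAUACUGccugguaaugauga
hsa-miR-200c-3p: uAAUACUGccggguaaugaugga
hsa-miR-429: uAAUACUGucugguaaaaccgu
hsa-miR-205-5p: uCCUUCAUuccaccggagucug

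The 3′UTRs of ZEB1 and ZEB2 held many matches to these seeds. In the longest annotated 3′UTR of each gene (GENCODE on GRCh37), ZEB1 had 6 copies of CAGTATT, the complement of the AAUACUG seed, in 2549 bases, and ZEB2 had 5 in 5370 bases. Only 9 of 19278 genes had 5 or more copies of this heptamer, while 16.9% had at least 1. Longer 3′UTRs hold more matches by length alone, and among the 4937 genes with a 3′UTR of at least 2549 bases 40.7% had at least 1 copy, with all 9 genes of 5 or more copies among them. The ZEB1 sites lay as follows, each shown in a window of 30 bases on GRCh37 with the heptamer in capitals.
ZEB1, chr10:31816546-31816575, plus strand: attgttttatcttatCAGTATTatcactct
ZEB1, chr10:31816640-31816669, plus strand: atgctaaatccgcttCAGTATTttattatg
ZEB1, chr10:31817069-31817098, plus strand: gtaagtgccatttctCAGTATTttcaaggc
ZEB1, chr10:31817420-31817449, plus strand: ctgatttttacctatCAGTATTattttatt
ZEB1, chr10:31817490-31817519, plus strand: tgtcttcaaacctggCAGTATTaataccct
ZEB1, chr10:31818141-31818170, plus strand: tcttttcatcattatCAGTATTttctttgg

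The 5 ZEB2 sites are shown in the same way, and the heptamer of the last window starts at base 1029 of the ZEB2 3′UTR.
ZEB2, chr2:145146612-145146641, minus strand: cgcactaccatacatCAGTATTtttattat
ZEB2, chr2:145146549-145146578, minus strand: cgcactacaatgcatCAGTATTatgattcc
ZEB2, chr2:145146191-145146220, minus strand: ttgaagcacccatgtCAGTATTagaagaat
ZEB2, chr2:145146106-145146135, minus strand: gttcattaattttgtCAGTATTacaccaaa
ZEB2, chr2:145145975-145146004, minus strand: tcatactgtagtgtaCAGTATTatagttct

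CAGTGTT, the complement of the AACACUG seed, occurred 3 times in the ZEB1 3′UTR and 4 times in that of ZEB2, and in no other member. It was present in 19.2% of all 3′UTRs and in 44.3% of those of at least 2549 bases, and 211 genes had 3 or more copies. Among the other members, FN1 had 2 copies of CAGTATT and SNAI2 had 1. ATGAAGG, the miR-205-5p match, occurred once in ZEB1 and in no other member, against 12.6% of all 3′UTRs and 30.6% of those of at least 2549 bases. A match is a description of the letters and not a measurement of pairing. The miRNA genes themselves gave almost no reads here, with 1 read over their 7 rows in each library, in MIR205HG in siNC and in MIR141 in siLINP1. These are rows for precursors or host transcripts in long-RNA libraries, so the mature miRNAs were not measured.

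The ZEB and SNAI factors bind the E-box CAGGTG, which reads CACCTG on the other strand, so RefSeq promoter windows (GRCh38.p14, 250 bases before to 50 after a transcript start) were searched for both forms. Of 35116 windows over all genes, 20.6% held at least 1 copy and 0.635% held 3 or more. With SNAI2 not included, the members had 12 windows, of ZEB1 (7), CDH2 (2), VIM, FN1 and ZEB2 (1 each). The motif was found in 2 windows of ZEB1, of which 1 held 3 copies, and in none of the windows of CDH2, VIM, FN1 or ZEB2. The ZEB1 window with 3 copies is shown with the motifs in capitals, at -242, -85 and 34 bases from the start, and the ZEB2 window, without a copy, is set beside it because ZEB1 and ZEB2 were both higher. No match says only that these letters are not in this window.
ZEB1, chr10:31318966-31319265, plus strand: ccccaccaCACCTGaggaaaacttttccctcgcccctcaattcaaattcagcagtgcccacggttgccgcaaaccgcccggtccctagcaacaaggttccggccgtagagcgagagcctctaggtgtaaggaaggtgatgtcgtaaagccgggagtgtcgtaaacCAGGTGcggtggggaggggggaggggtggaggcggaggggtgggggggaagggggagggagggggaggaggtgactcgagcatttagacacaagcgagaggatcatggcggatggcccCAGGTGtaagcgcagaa
ZEB2, chr2:144520070-144520369, minus strand: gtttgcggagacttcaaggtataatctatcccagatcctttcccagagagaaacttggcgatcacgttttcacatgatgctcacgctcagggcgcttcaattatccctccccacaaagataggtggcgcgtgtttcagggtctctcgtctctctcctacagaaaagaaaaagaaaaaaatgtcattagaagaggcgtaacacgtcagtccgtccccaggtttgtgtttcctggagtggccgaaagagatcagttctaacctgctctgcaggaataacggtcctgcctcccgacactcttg
CDH1, EPCAM, SNAI1 and TWIST1 had no window in this set, so the motif was not searched there. SNAI2 was not included, and these genes are named only.

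The epithelial adhesion genes are taken first. CDH1 encodes E-cadherin, the calcium-dependent adhesion protein of epithelial adherens junctions, and EPCAM encodes the epithelial cell adhesion molecule on the surface of most simple epithelia and carcinomas. CDH1 (GRCh37, chromosome 16, 68771193 to 68869445, plus strand) had 14 reads in siNC and 3 in siLINP1, or 0.152 and 0.0399 RPKM. Its ratio was 0.248 of the siNC value, with an interval of 0.0457 to 0.888, or -2.01 on the log2 scale (-4.45 to -0.17). The upper end of that interval is close to no change, and the width reflects the 17 reads on which it rests. EPCAM (chromosome 2, 47596287 to 47614167, plus strand) had 12 and 8 reads, or 0.371 and 0.303 RPKM, with a log2 ratio of -0.38 (-1.87 to 1.04). A difference in EPCAM was not detectable at this depth. In a bulk library, fewer cells with a transcript and less of that transcript per cell cannot be told apart.

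The transcription factors differed among themselves both in level and in direction. ZEB1 and ZEB2 encode related zinc finger homeobox repressors of CDH1 and of the miR-200 genes. ZEB2 (chromosome 2, 145141942 to 145277958, minus strand) had 416 reads in siNC and 810 in siLINP1, or 1.90 and 4.52 RPKM. Its change was the largest rise of the 10 genes, 2.25-fold, or 1.17 on the log2 scale (1.00 to 1.34), and 5.21% of all genes tested had a higher log2 ratio. ZEB1 (chromosome 10, 31607424 to 31818742, plus strand) had 697 and 883 reads, or 4.69 and 7.27 RPKM, and was 1.46-fold higher, or 0.55 on the log2 scale (0.41 to 0.70). ZEB2 was nearer to ZEB1 in siLINP1 than in siNC: ZEB1 stood 2.47 times above ZEB2 by RPKM in siNC and 1.61 times above it in siLINP1, and the log2 ratio of ZEB2 to ZEB1 was 0.62 higher (0.39 to 0.85). This ratio is taken within each library and does not depend on the size factors.

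SNAI1 encodes Snail, a zinc finger repressor that binds the CDH1 promoter, and SNAI2 encodes its relative Slug. SNAI1 (chromosome 20, 48599513 to 48605423, plus strand) had 412 reads in siNC and 437 in siLINP1, or 12.8 and 16.6 RPKM, and was 0.29 higher on the log2 scale (0.10 to 0.49). Its raw counts were close, and the difference appeared on scaling to the smaller siLINP1 library. SNAI2 (chromosome 8, 49830236 to 49833999, minus strand) had 16 and 24 reads, or 0.402 and 0.739 RPKM, and its log2 ratio of 0.79 had an interval of -0.18 to 1.80, which holds no change. SNAI1 stood far above SNAI2 in both libraries.

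TWIST1 encodes a basic helix-loop-helix factor that works as a dimer with E proteins and moved opposite to the ZEB genes. It (chromosome 7, 19155091 to 19157295, minus strand) had 252 reads in siNC and 170 in siLINP1, or 8.03 and 6.63 RPKM, with a log2 ratio of -0.36 (-0.65 to -0.07). Scaling by total count raised all log2 ratios by 0.08, more than the distance of -0.07 from no change. The call of TWIST1 as lower therefore depends on the scaling. Relative to TWIST1, SNAI1 was 0.65 higher on the log2 scale in siLINP1 than in siNC (0.30 to 1.00). SNAI1 was 1.59 times the TWIST1 level by RPKM in siNC and 2.51 times in siLINP1.

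The mesenchymal effector genes were lower, CDH2 more so than VIM. VIM encodes vimentin, the intermediate filament protein of mesenchymal cells, and was by far the most abundant member. VIM (chromosome 10, 17270258 to 17279592, plus strand) had 61097 reads in siNC and 41992 in siLINP1, or 1519 and 1278 RPKM, and was rank 43 and rank 42 by RPKM among the genes with a read. It took 0.324% of the counted reads in siNC and 0.273% in siLINP1. Its log2 ratio was -0.33 (-0.35 to -0.31), and 74.7% of all genes tested had a higher one. The narrow interval comes from the read number and says nothing of the spread between cultures. Among the 488 genes with at least 10000 reads the median log2 ratio was -0.20, and 70.1% of them had a whole interval below no change, VIM among them.

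CDH2 encodes N-cadherin, the cadherin of neural and mesenchymal cells that takes the place of E-cadherin in the classical cadherin switch. CDH2 (chromosome 18, 25530927 to 25757410, minus strand) had 1862 reads in siNC and 1092 in siLINP1, or 22.2 and 15.9 RPKM, and its log2 ratio was -0.56 (-0.67 to -0.45). FN1 encodes fibronectin, an extracellular matrix glycoprotein that mesenchymal cells lay down and migrate on. FN1 (chromosome 2, 216225163 to 216300793, minus strand) had 1151 and 753 reads, or 6.80 and 5.44 RPKM, and its log2 ratio was -0.40 (-0.54 to -0.27). Set against VIM within each library, CDH2 was lower by a further -0.23 on the log2 scale (-0.34 to -0.12). For FN1 against VIM the change of the ratio was -0.07 (-0.20 to 0.06), and for TWIST1 against VIM it was -0.03 (-0.31 to 0.25), and both intervals hold no change. CDH2 was 3.27 times the FN1 level by RPKM in siNC and 2.93 times in siLINP1, and the change of that ratio, -0.16 on the log2 scale (-0.33 to 0.02), had an interval that holds no change too.

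**Figure D1:**
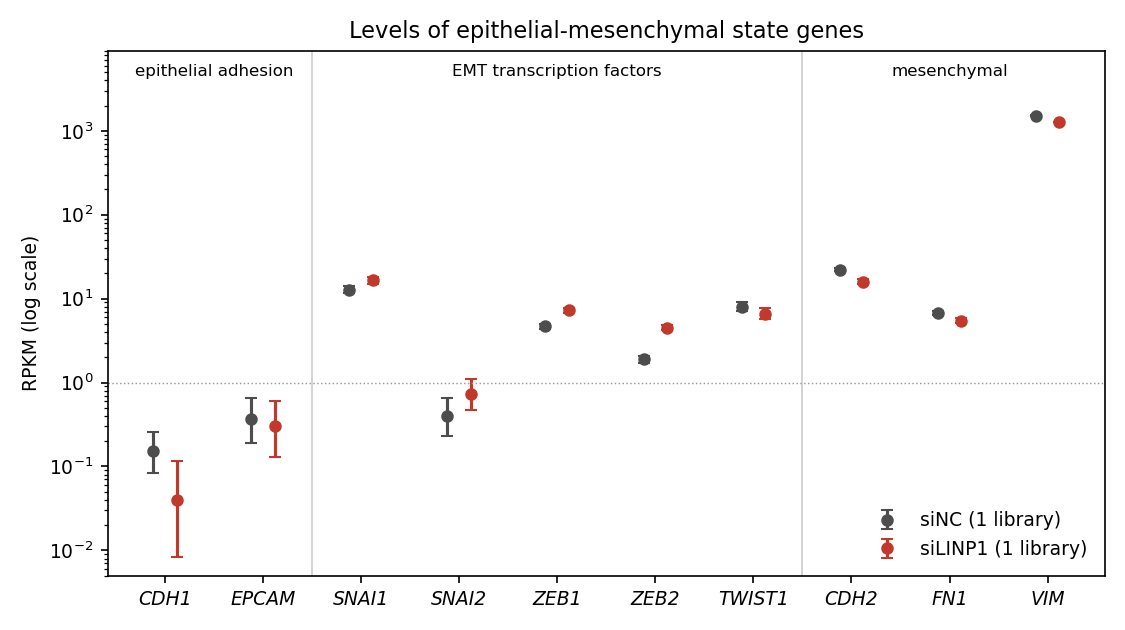
RPKM of each member on a log axis in the siNC library (grey) and the siLINP1 library (red), with exact 95% Poisson intervals, which cover counting error only. VIM, at 1519 and 1278 RPKM, sits far above the other genes, and CDH1, EPCAM and SNAI2 sit below the dotted line at 1 RPKM in both libraries.

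**Figure D2:**
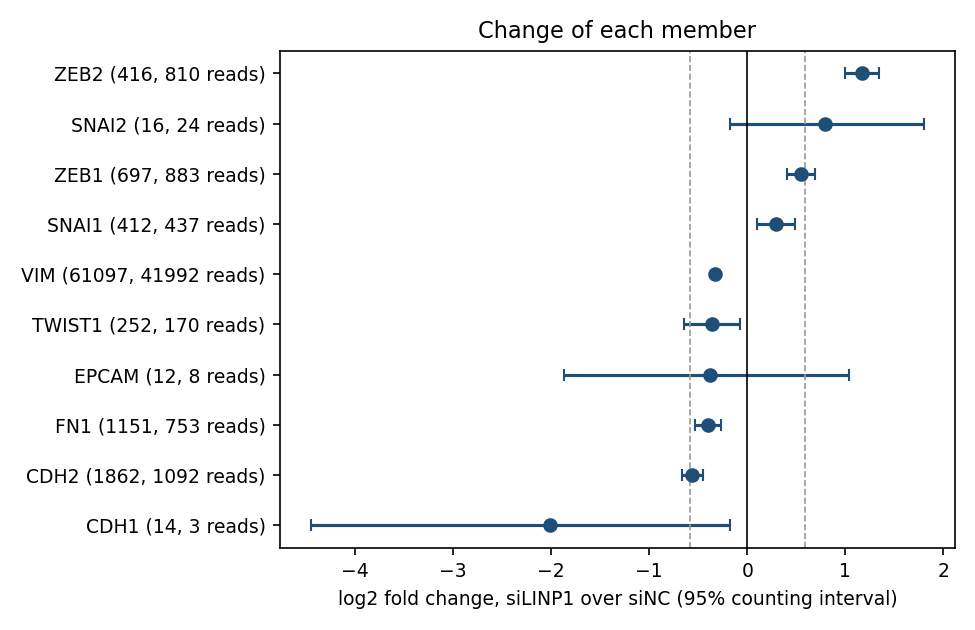
Log2 fold change of each member, siLINP1 over siNC, with the 95% counting interval and the reads in siNC and siLINP1 beside each name. Dashed lines mark 1.5-fold, and ZEB2, ZEB1 and SNAI1 lie wholly to the right of no change, while VIM, TWIST1, FN1, CDH2 and CDH1 lie wholly to its left.

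The order of the levels shifted in the middle of the range. In siNC it ran VIM, CDH2, SNAI1, TWIST1, FN1, ZEB1, ZEB2, SNAI2, EPCAM and CDH1. The Poisson intervals of neighbours overlapped for TWIST1 and FN1, for SNAI2 and EPCAM, and for EPCAM and CDH1. In siLINP1 SNAI1 and CDH2 followed VIM with overlapping intervals, at 16.6 and 15.9 RPKM. ZEB1, TWIST1 and FN1 came next, with overlap between neighbours, then ZEB2, then SNAI2 and EPCAM with overlap, and CDH1 last. The distance from VIM to the ZEB genes narrowed: VIM was 801 times the ZEB2 level in siNC and 283 times in siLINP1, and 324 and 176 times the ZEB1 level. On the log2 scale the ratio of ZEB1 to VIM was 0.88 higher in siLINP1 (0.74 to 1.03), and for ZEB2 to VIM the interval of this change ran from 1.33 to 1.67. VIM belongs to the class of at least 10000 reads, whose median log2 ratio was -0.20. The class of 1000 to 10000 reads, which holds ZEB1, ZEB2 and CDH2, had a median of -0.03. Intervals of ratios to VIM cover counting error only and not this difference between classes.

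Counted over the members, 3 of 10 were higher with their whole interval above no change, against 23.0% of all genes tested, and 5 of 10 were lower, against 25.6%. Among those lower, the call of TWIST1 depends on the scaling. By a fold of 1.5, the fold criterion of the study, 2 of 10 were past it upwards (ZEB2 and SNAI2), against 14.4% of all genes, and 1 downwards (CDH1), against 13.0%. Past 2-fold lay ZEB2 upwards, with 6.74% of all genes, and CDH1 downwards, with 5.33%. With 10 members, 1 gene makes 10% of the list, so the fold counts lie near the background. The interval calls depend on read number: in the class of 1000 to 10000 reads, 32.5% of all genes had a whole interval above no change and 38.5% below it. The median log2 ratio of the 10 members was -0.34, beside -0.02 over all genes tested.

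**Figure D3:**
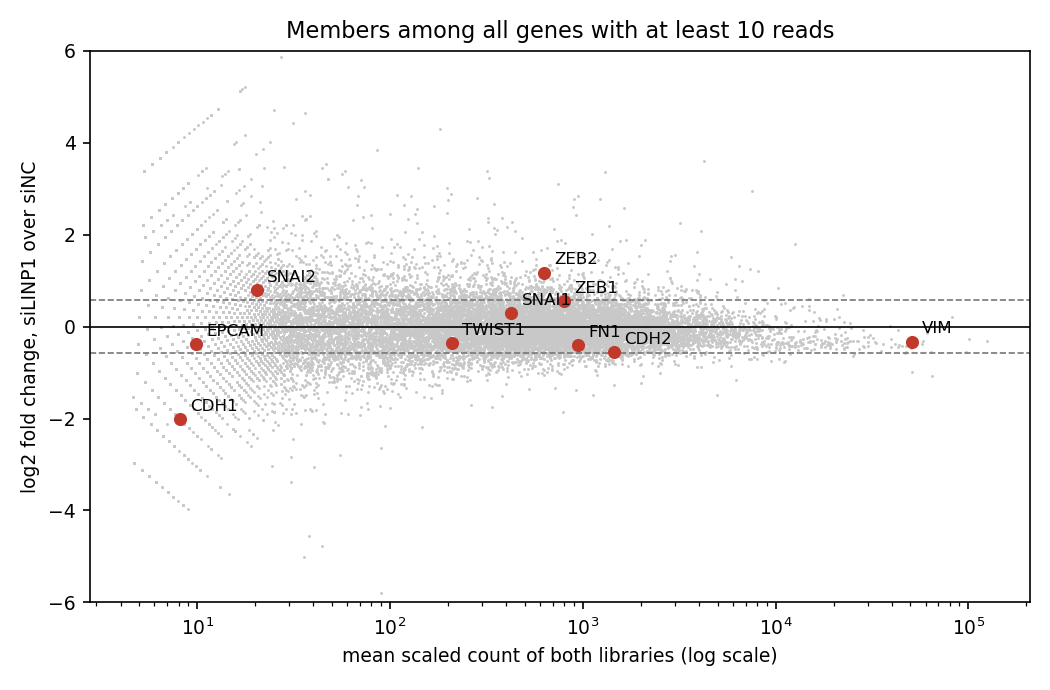
Log2 fold change, siLINP1 over siNC, against the mean scaled count of both libraries (log axis) for the 19840 genes with at least 10 reads (grey), with the members in red and dashed lines at 1.5-fold. ZEB2 stands near the upper edge of genes of its depth, VIM lies at the right among abundant genes that are mostly below no change, and CDH1, EPCAM and SNAI2 lie in the wide part at few reads.

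Reads of other genes lie on the same stretches of DNA, and the strand setting of the counting was not given in the sources used here. VIM-AS1, on the opposite strand and sharing 1727 bases with the VIM span, had 15952 reads in siNC and 11249 in siLINP1, which was 26.1% and 26.8% of the VIM count, with a log2 ratio of -0.29 (-0.33 to -0.26). Without strand, reads from VIM and VIM-AS1 on these bases cannot be told apart. ZEB1-AS1 shares 601 bases with ZEB1 and had 75 and 73 reads, and ZEB2-AS1 shares 778 bases with ZEB2 and had 1 and 0 reads, both far fewer than the ZEB gene beside them. Of the other overlapping genes, ENSG00000234961.1 on the opposite strand within VIM had 938 and 766 reads, ENSG00000196960.3 within ZEB1 had 10 and 26, ENSG00000227279.1 within CDH2 had 12 and 11, and SPTLC1P1 within ZEB1 had 1 in each library. ENSG00000260798.1 and FTLP14, within CDH1, and MIR559, within EPCAM, had none. No gene in the table overlapped SNAI1, SNAI2, TWIST1 or FN1.

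The other genes of the transition were read from lists. Over all genes tested, 23.0% were higher and 25.6% were lower, which is the background for the counts below. Of 19 further transcription factors of the transition with enough reads, of 20 listed, 8 were higher, 3 were lower and the median log2 ratio was 0.19. ID2, which encodes an inhibitor of basic helix-loop-helix factors, went from 38 reads to 95 (log2 ratio 1.53, interval 0.97 to 2.11, and in this form below, siNC before siLINP1). TCF3, which encodes the E proteins that pair with TWIST1, had 1061 and 1316 reads (0.52, 0.40 to 0.64), and MEF2C, a muscle and neural crest factor, had 112 and 159 (0.71, 0.36 to 1.08). ID1, a relative of ID2, went the other way with 971 and 560 reads (-0.58, -0.74 to -0.43). TWIST2, the paralogue of TWIST1, had 113 and 64 reads (-0.61, -1.08 to -0.16), and RUNX2, a bone lineage factor, had 183 and 101 (-0.65, -1.01 to -0.29). Both TWIST genes were thus lower, the call of TWIST1 depending on the scaling.

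Of 16 co-repressors and regulators of the SNAI and ZEB factors, 5 were higher and 8 were lower, with a median of -0.07. The list holds kinases (LATS2, GSK3B) and ubiquitin ligase subunits (FBXL14, FBXW11, BTRC) beside the co-repressors. CTBP1 and CTBP2 encode the co-repressors that ZEB proteins bind, and both were lower, CTBP2 with 2140 reads in siNC and 1321 in siLINP1 (-0.49, -0.59 to -0.39) and CTBP1 with 2748 and 1938 (-0.29, -0.38 to -0.21). KDM1A, the histone demethylase LSD1 that SNAI1 recruits, had 4071 and 2743 reads (-0.36, -0.43 to -0.29). Higher were HDAC1, a histone deacetylase, with 1722 and 2014 reads (0.44, 0.34 to 0.53), EZH2, the H3K27 methyltransferase, with 729 and 769 (0.29, 0.14 to 0.43), and LATS2, a Hippo pathway kinase, with 1120 and 1770 (0.87, 0.76 to 0.98).

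The wider mesenchymal list had more genes lower than higher. Of 27 genes with enough reads, of 30 listed, 9 were higher and 13 lower, against 23.0% and 25.6% of all genes tested. The median was -0.28. The most abundant were LGALS1 (galectin-1), S100A4 (a calcium-binding protein of motile cells) and SPARC (a matrix glycoprotein). LGALS1 went from 1256 RPKM in siNC to 934 in siLINP1 (-0.51, -0.55 to -0.47), S100A4 from 596 to 399 (-0.66, -0.72 to -0.60) and SPARC from 505 to 382 (-0.48, -0.51 to -0.46). All of these were lower, as VIM was. Not every abundant gene of the list was lower: AXL went from 165 to 217 RPKM (0.32, 0.28 to 0.35) and TNC from 126 to 149 (0.16, 0.13 to 0.19). LGALS1 and SPARC had over 10000 reads, the class in which 70.1% of all genes were below no change with a median of -0.20. Of genes with fewer reads, LUM (lumican) had 222 and 87 reads (-1.14, -1.52 to -0.78), PDGFRB (a receptor of mesenchymal cells) had 369 and 172 (-0.89, -1.16 to -0.63) and DCN (decorin) had 29 and 2 (-3.65, -6.76 to -1.67). Higher were NCAM1, a neural adhesion molecule, with 319 and 422 reads (0.61, 0.40 to 0.83), LOX, a collagen cross-linking enzyme, with 28 and 52 (1.10, 0.41 to 1.82), and POSTN (periostin) with 2 and 11 (2.67, 0.47 to 5.88).

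Of the 10 cytoskeletal partners of vimentin, 7 were below no change and 1 was above it, with a median of -0.22. PLEC, FLNA, LMNA and ANXA2 each had over 10000 reads and were below no change. In that class 70.1% of all genes were below no change with a median of -0.20, so such a fall was common at that depth. The other genes of the list had fewer reads. FLNA (filamin A, an actin cross-linker) had 69201 reads in siNC and 48188 in siLINP1 (-0.31, -0.33 to -0.30), and ANXA2 (annexin A2) had 24364 and 17520 (-0.27, -0.29 to -0.24). LMNA, the nuclear lamin gene, had 37410 and 27119 (-0.25, -0.28 to -0.23). These changes were close in size to that of VIM. DES, the muscle intermediate filament gene, had 60 and 5 reads (-3.38, -5.05 to -2.07), while NES, which encodes the filament protein nestin of progenitor cells, was higher with 295 and 426 (0.74, 0.52 to 0.96).

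On the epithelial side, each list had log2 ratios on both sides of no change, although not every list had genes called in both directions. Of the 18 genes of adherens junctions and desmosomes, 3 were higher and 5 lower, with a median of 0.09. The cytoplasmic partners of cadherins stayed abundant although CDH1 was nearly without reads: CTNNA1 (alpha-catenin) had 79.5 RPKM in siNC and 84.8 in siLINP1 (0.01, -0.04 to 0.06) and CTNNB1 (beta-catenin) had 72.0 and 65.2 (-0.22, -0.28 to -0.16). CTNND1, the p120 catenin gene, had 32.5 and 37.0 RPKM (0.10, 0.04 to 0.17). JUP (plakoglobin) was lower with 301 and 154 reads (-0.76, -1.05 to -0.47), as were PKP3 (plakophilin 3) with 678 and 379 (-0.63, -0.81 to -0.45) and NECTIN1, an adhesion molecule of adherens junctions, with 546 and 342 (-0.47, -0.66 to -0.27). AFDN (afadin, its intracellular partner) was higher with 654 and 811 (0.52, 0.37 to 0.67), and so was PERP, a desmosomal protein gene, with 1158 and 1398 (0.48, 0.37 to 0.59).

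Of the 16 tight junction genes, 11 had enough reads, 2 were higher and 2 were lower, and 9 of the 16 were under 1 RPKM in both libraries. CLDN4 (claudin 4) had 845 reads in siNC and 361 in siLINP1 (-1.02, -1.20 to -0.84) and F11R (the junctional adhesion molecule JAM-A) had 926 and 432 (-0.89, -1.06 to -0.72). The scaffold gene TJP1 (ZO-1) stood at 12.6 RPKM in siNC and 13.7 in siLINP1 (0.04, -0.05 to 0.13), and TJP3, a related scaffold gene, had 3 and 14 reads (2.43, 0.59 to 4.87).

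Of 13 epithelial transcription and splicing regulators, 10 had enough reads, 2 were higher and none was lower, with a median of 0.02. KLF5, a factor of basal epithelia, had 2861 reads in siNC and 3642 in siLINP1 (0.56, 0.49 to 0.63), and GRHL1, a grainyhead factor, had 64 and 95 (0.78, 0.31 to 1.26). ESRP2 and RBM47, splicing regulators of epithelial isoforms, had 148 and 113 and 182 and 129 reads, with intervals that hold no change. Of the 11 epithelial surface and secretory genes with enough reads, 1 was higher and 4 were lower, with a median of -0.47. CD9, a tetraspanin, had 1887 and 991 reads (-0.72, -0.83 to -0.61), and LLGL2 (a polarity gene) had 162 and 94 (-0.58, -0.96 to -0.20). SPINT1, an inhibitor of surface proteases, had 40 and 19 (-0.86, -1.73 to -0.04), and AP1M2, an adaptor of basolateral sorting, was the gene that was higher, with 160 and 220 (0.67, 0.37 to 0.97).

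**Figure D4:**
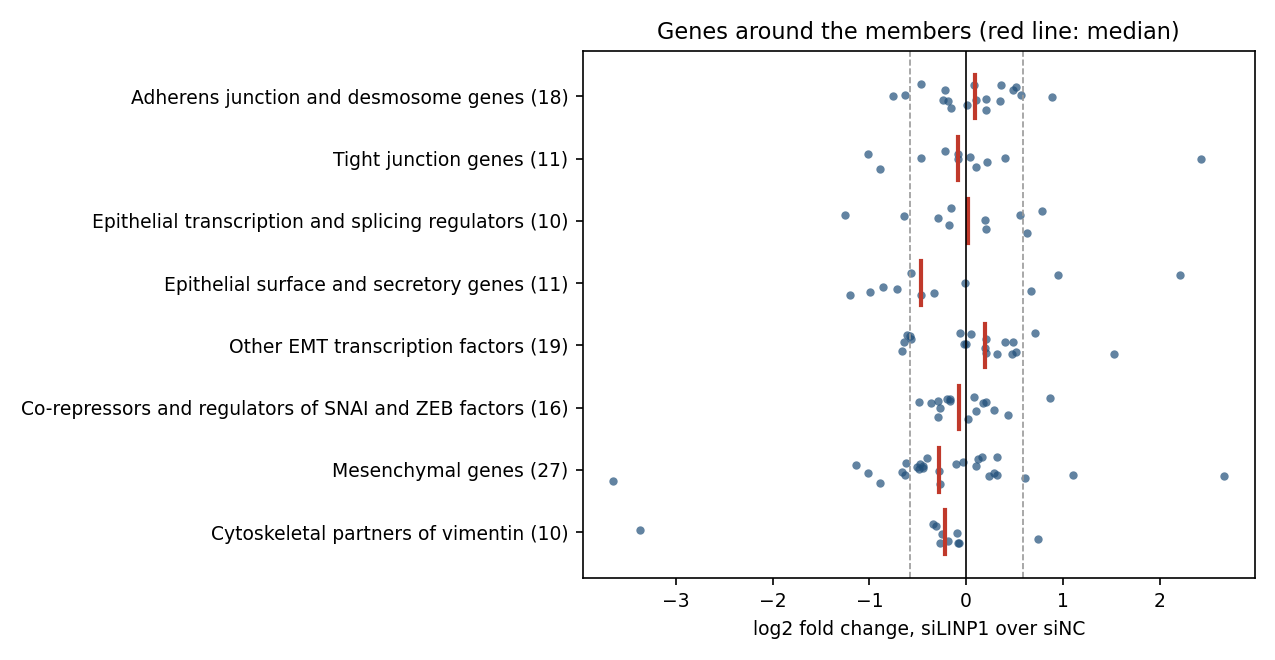
Log2 fold change, siLINP1 over siNC, of each gene with at least 10 reads in 8 lists around the members (blue points, the number of genes in brackets), with the list's median as a red line and dashed lines at 1.5-fold. The medians run from -0.47 for epithelial surface and secretory genes to 0.19 for the other EMT transcription factors, and each list has points on both sides of no change.

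The squamous label was checked against markers. Of 14 squamous keratinocyte markers, 8 were under 1 RPKM in both libraries, TP63 had 6 and 8 reads and KRT5 had 32 and 24, while S100A2 alone made up 112 of the 138 summed RPKM in siNC and 116 of 133 in siLINP1. KRT14, the basal keratin gene, had 243 and 87 reads (-1.27, -1.64 to -0.91), and SFN (stratifin) had 264 and 138 (-0.73, -1.03 to -0.42). KRT6A, another keratin gene, went the other way with 31 and 45 (0.75, 0.06 to 1.46). Of the 13 markers with enough reads, 1 was higher, 2 were lower and 10 had intervals that hold no change. CDH1 and TP63, defining markers of epithelial and squamous cells, had at most 14 reads in a library. S100A2 was abundant, as were KLF5 (40.5 and 63.2 RPKM) and CLDN4 (24.5 and 12.8) of the epithelial lists. The low values of most of the 14 markers go against a squamous epithelial profile in both libraries alike. The identity of the line was not tested, so the pattern of the 10 genes is described for the cells as labelled. Of the 8 melanocyte markers, 5 were under 1 RPKM in both libraries. SOX10, a neural crest factor, had 10023 and 8533 reads (186 and 194 RPKM) and MITF 6.46 and 7.75 RPKM, and S100B came next by mean RPKM. TYR was at 0 in both, DCT had 0 and 3 reads and MLANA 13 and 11.

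Fibroblast markers were low, and several were lower in siLINP1. Their summed level over 10 genes was 12.0 RPKM in siNC and 6.75 in siLINP1, with 1 gene higher, 4 lower and 4 with intervals that hold no change of 9 with enough reads, and DCN, LUM, PDGFRB and POSTN are also in the mesenchymal list. COL1A1, the chain of collagen I, had 190 and 79 reads (-1.06, -1.45 to -0.67), and THY1 had 1 and 0. In siNC this sum compares with 1519 RPKM of VIM, 22.2 of CDH2 and 6.80 of FN1, and the part of these markers in the changes of VIM, CDH2 and FN1 was not tested. Of the 8 blood cell markers, CD68 had 48.7 and 45.8 RPKM, PTPRC, the pan-leukocyte marker, had 1 and 4 reads, CD3E and HBB had none in either library, and ITGAM had 12 and 148 reads (3.83, 2.99 to 4.82). The 7 endothelial markers were each under 1 RPKM in both libraries, with a summed level of 1.30 and 0.836 RPKM, of which KDR, the VEGF receptor gene, had 0.974 and 0.515 (interval of the log2 ratio -1.52 to -0.50).

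An siRNA can also pair with other transcripts through bases 2 to 8 of its guide strand. The text names 2 siRNAs against LINP1, and which of them went into the sequenced culture was not given in the sources used here. Their target sequences are shown because their seed matches occur in members, with the bases that a fully complementary guide pairs with by its seed in capitals.
siLINP1_01: ccaactgcgggACTTCAGa
siLINP1_02: cactctccagcCTGCAAGa
The siLINP1_01 heptamer occurred 2 times in the CDH2 3′UTR and in no other member, against 15.6% of all genes with at least 1 copy. The siLINP1_02 heptamer occurred once each in FN1, ZEB2 and SNAI2, against 13.0%. Among 3′UTRs of at least 2549 bases, the class that holds ZEB2, 29.8% had it. CDH2 and FN1 were lower and ZEB2 was higher in siLINP1, and a part of these sites in the changes was not tested.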

How the data were processed

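RNA was measured in HSC-1 cells after transfection of siNC or of siLINP1, with 1 library each. Reads were sequenced on an Illumina HiSeq instrument, aligned by the authors to GRCh37/hg19 with Tophat2 and counted per gene with HTSeq. The submitters' processing notes name HISAT2, HISAT and Bowtie2 as well, with no versions. The authors deposited raw read counts and, beside them, RPKM. The deposited RPKM followed from count, gene length and library total to within 5.82e-11 RPKM. The annotation, counting mode and strand setting were not given in the sources used here. A further 12 columns of per-sample values were not used.

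Size factors were taken by the median of ratios (1.08 for siNC and 0.930 for siLINP1), and genes with fewer than 10 reads in all were left out. Log2 ratios have no pseudocount. Their 95% intervals are Clopper-Pearson intervals turned into a fold, pair ratios within a library have intervals of the odds ratio (exact, or a normal approximation for pairs with VIM), and levels have exact Poisson intervals. There is no spread between replicates, so no p-value was computed. In medians, 0 reads were replaced by a floor of 3 reads. The code was tested on simulated data.

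The members and the 15 gene lists were chosen with earlier results of these data known. Genes named are the members, LINP1 and genes overlapping a member, and of each list up to 3 rises and 3 falls by the interval end nearer to no change, with up to 3 genes of highest mean RPKM. KRT5, TP63, TYR, DCT, MLANA, THY1, PTPRC, CD3E and HBB (defining markers), PLEC, GSK3B, FBXL14, FBXW11 and BTRC (what a list holds) and AXL and TNC (abundant mesenchymal genes that were higher) were named after their values were seen. Some results on single genes of the lists are not reported here. Seed matches were searched in the longest annotated 3′UTR per gene (GENCODE, GRCh37), and promoter windows and mature miRNAs came from RefSeq (GRCh38.p14). Alternatives were scaling by total count, TMM factors (edgeR 4.0.16, R 4.3.3), deposited RPKM, size factors from protein-coding genes, pseudocounts of 1 and 5 and a minimum of 1 or 100 reads. Python 3.11.15 with numpy 2.4.6, pandas 2.3.3, scipy 1.17.1 and matplotlib 3.10.9 was used.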

Additional observations from a re-analysis of the deposited data

How the results depend on the processing

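No replicate could be left out and no paired analysis was possible because each condition had 1 library. Each member kept its direction under every alternative in which it was computed. Of all values recomputed, 213 stayed within their interval, or for a count within 1.5 times, while 15 moved further, and no called value reversed. These totals hold values that are not separate checks. The deposited RPKM gave the same log2 ratios as scaling by total count, and the numbers of genes tested can change only with the read minimum. The interval was the counting interval for a member and an interval of the median over genes for a list. For lists too short to have an interval the limit was a move of 0.1. List intervals were wide: the fibroblast median, -0.21 at first, was -1.06 with a minimum of 100 reads and counted as within its interval. Intervals were not recomputed under the alternatives. Scaling by total count raised all log2 ratios by 0.08, more than the distance of the upper end of the TWIST1 interval (-0.07) from no change. With this scaling, and with the deposited RPKM, VIM was at -0.25 and the melanocyte median at 0.19. ZEB1 came to 0.63 on the log2 scale there, past 1.5-fold, so 3 members were past it upwards. The medians of the antisense, tight junction and co-repressor lists, all within 0.1 of 0, turned from below to above 0 there, and that of adherens junction and desmosome genes went from 0.09 to -0.07 with a minimum of 100 reads. VIM was at -0.31 with TMM factors and at -0.30 with size factors from protein-coding genes. CDH1 ranged from -2.01 to -1.13 over the alternatives, the smaller change coming with a pseudocount. With a minimum of 1 read, 6657 genes were past 1.5-fold upwards and 5488 downwards, and the medians changed sign for the antisense genes (2 genes at first, -0.06, then 0.17) and the endothelial markers (3 genes at first, 0.21, then -0.21). With a minimum of 100 reads, 1 member was past 1.5-fold upwards and 0 downwards, since SNAI2 and CDH1 were left out, 1163 genes were past it upwards and 903 downwards in all, and the endothelial median was -1, from KDR alone. Read numbers limit CDH1, EPCAM and SNAI2, whose changes rest on 17, 20 and 40 reads.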
